A study of Homo sapiens with 6 samples.

Results

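The 10 genes described here encode regulators of apoptosis of the BCL2 family: BCL2, BCL2L1, MCL1, BAX, BAK1, BBC3, PMAIP1, BCL2L11, BID and BIK. They were taken by gene symbol from a table of 61806 genes, and each was found there. The RNA came from MDA-MB-231, an established human triple-negative breast cancer line, in 6 libraries. The shNC line carried a control vector, and the shHMGA2-1 and shHMGA2-2 lines each carried a lentiviral short hairpin RNA against HMGA2, an architectural chromatin protein, with 2 libraries per line. By the study's methods the infected cells were selected with puromycin and the knockdown lines were each grown from a single clone, which is not stated for shNC. No other treatment or time point is given. Nothing in the sources says that the libraries of a line came from separate cultures, so the p-values measure only the spread between these samples, and an effect of the hairpin and of the clone cannot be told apart. Line names follow the sample titles, since the library names differ from them: WT appears in the control names and SH2 in the names of shHMGA2-1.

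The BCL2 family decides whether the outer mitochondrial membrane stays intact when a cell is stressed. BCL2, BCL-XL (from BCL2L1) and MCL1 are antiapoptotic and hold their relatives in check, BAX and BAK1 are the effectors that form pores and release cytochrome c, and the BH3-only proteins sense stress and either neutralize the antiapoptotic members or activate the effectors. Breast cancer cells commonly depend on MCL1 and BCL-XL for survival.

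Libraries held 16461178 to 17167293 counts, and mitochondrial genes took 6.74% to 7.86% of them. The targeted gene HMGA2 gave 2126 and 2161 counts for shNC, while shHMGA2-1 gave 858 and 989 and shHMGA2-2 gave 435 and 482. Of the markers of the line, VIM, a mesenchymal filament protein, lay between 411 and 432 FPKM (fragments per kilobase of exon, scaled to library size), while CD44 rose from 64.9 and 66.0 FPKM in shNC to 79.8 and 82.9 in shHMGA2-1 and 95.8 and 92.6 in shHMGA2-2. EGFR fell from 33.3 and 33.6 FPKM in shNC to 20.6 and 21.1 in shHMGA2-1 and 13.1 and 11.9 in shHMGA2-2. Of the luminal and epithelial markers, ESR1 (the estrogen receptor), PGR and CDH1 lay at 0.05 FPKM or less in every library, but the others differed between lines. GATA3 lay between 0.65 and 1.01 FPKM in shNC and shHMGA2-1 and reached 4.69 and 5.65 in shHMGA2-2. FOXA1 dropped from 1.47 and 1.25 FPKM in shNC to 0.07 and 0.01 in shHMGA2-2, with 0.84 and 0.90 in shHMGA2-1. EPCAM was higher in shHMGA2-1, at 6.57 and 7.26 FPKM, than in the other lines, at 3.08 to 3.54. PTPRC, a leukocyte marker, had at most 2 counts in a library. The part of these markers in the results below was not tested.

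The promoters of BCL2L11 and BAK1 are shown because these were the well covered members that were called higher in shHMGA2-2 than in shNC. RefSeq entries (GRCh38.p14) were matched for 8 of the 10 members, and MCL1 and BIK were not matched. Each sequence below lies upstream of an annotated start site and ahead of its first exon, reads 5′ to 3′ on the gene's strand, and carries the matches to the searched motifs in capitals. That of BCL2L11 is chr2:111120664-111120913 on the plus strand (250 bases, 76.8% G or C), and lies inside the span that the table gives the gene, which begins at 111119378. That of BAK1 is chr6:33580294-33580526 on the minus strand (233 bases, 57.1% G or C).
BCL2L11: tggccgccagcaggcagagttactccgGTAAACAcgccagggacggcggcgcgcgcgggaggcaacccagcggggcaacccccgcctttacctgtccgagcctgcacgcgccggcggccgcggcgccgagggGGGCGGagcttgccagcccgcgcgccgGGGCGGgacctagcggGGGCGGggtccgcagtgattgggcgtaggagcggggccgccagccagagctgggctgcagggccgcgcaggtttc
BAK1: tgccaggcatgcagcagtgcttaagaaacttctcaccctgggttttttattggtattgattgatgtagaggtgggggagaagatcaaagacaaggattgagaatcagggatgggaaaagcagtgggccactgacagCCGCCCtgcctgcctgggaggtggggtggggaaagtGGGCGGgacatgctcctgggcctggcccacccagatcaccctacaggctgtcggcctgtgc

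The motifs were searched on both strands in the 250 bases before each start site, and no match shown overlapped another. The forkhead core GTAAACA, the letters that FOXO factors recognize, occurred once before BCL2L11, from base -223 to base -217, and in 2.98% of 35116 such windows of all genes. The GC box GGGCGG occurred 3 times before BCL2L11 and 2 times before BAK1, once as its reverse complement CCGCCC, and was held by 42.6% of all windows. It was also found before BAX, BID and PMAIP1. The E-box CACGTG (6.34% of windows) stood before BAX, BBC3 and BID, the AP-1 motif TGAGTCA (4.2%) before BBC3, and AATT, a short A and T run of the kind HMGA proteins bind (43%), before BID and PMAIP1. The 8 matched members had 13 entries between them, and a member is named where any of its windows held the motif. The percentages are shares of single windows, so the number of members named cannot be set against them directly. A match describes letters only and is not evidence that a factor bound there.

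In levels per exon length, the members spanned a wide range, in much the same order in the 3 lines. MCL1 was highest in each line, with 82.18 and 84.48 FPKM in shNC, and PMAIP1 and BCL2L1 followed, with overlapping values in shNC. BAX, BAK1 and BID came next there, BCL2 (2.74 and 2.70 FPKM) and BCL2L11 (2.17 and 2.48) lay low, and BBC3 and BIK were lowest. In shHMGA2-1 BCL2L11 stood above BCL2, and in shHMGA2-2 it also stood above BID. BCL2 and BIK, and BIK and BBC3, overlapped in shHMGA2-2, and all other neighbours in the order were separate in their 2 libraries.

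**Figure D1:**
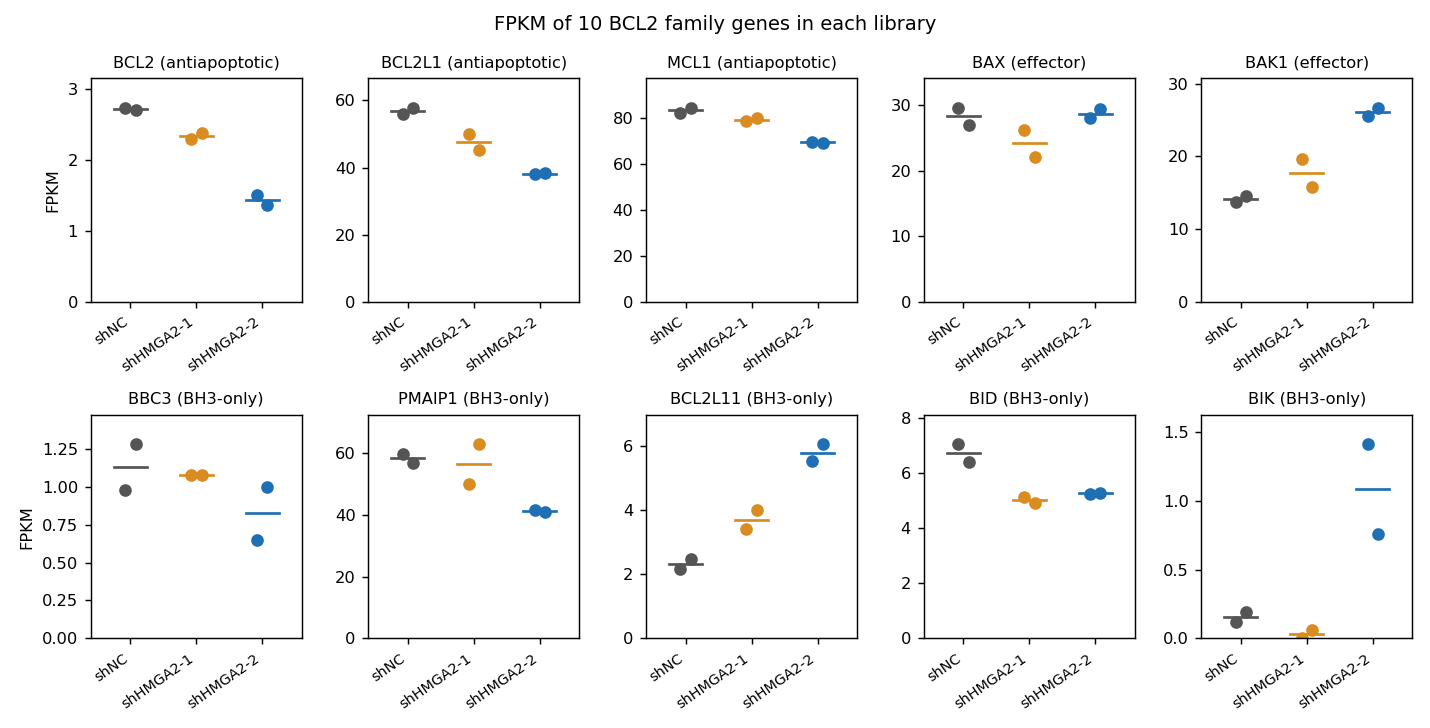
Points give the FPKM of each member in each library (vertical axes, linear and starting at 0, each gene on its own scale), grouped by line, and horizontal bars give the mean of the 2 libraries. For BCL2, BCL2L1 and MCL1 both shHMGA2-2 points lie below those of the other lines, and for BCL2L11 and BAK1 above them.

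The comparisons asked whether the expression of these genes differed between each knockdown line and shNC, and between the knockdown lines. In shHMGA2-2, all 3 antiapoptotic genes and the BH3-only genes PMAIP1 and BID were lower than in shNC, and BAK1 and BCL2L11 were higher. In shHMGA2-1, BCL2, BCL2L1, BAX and BID were lower and BCL2L11 was higher. A gene was called when its p-value from edgeR's quasi-likelihood test, adjusted over the 16110 genes tested, was under 0.05. All 10 members passed the filter on low counts, but BIK passed it only through the shHMGA2-2 libraries, where it is high, so that counts are given with and without it and its test is not reported. In bulk RNA, fewer cells with a transcript and less of it per cell cannot be told apart.

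In shHMGA2-2 against shNC, 7 of the 9 members other than BIK were called, 2 higher and 5 lower (8 of 10 with BIK), where 58.8% of all tested genes were called, 29.5% higher and 29.2% lower. In shHMGA2-1 against shNC, 5 of the 9 were called, 1 higher and 4 lower (5 of 10 with BIK), against a background of 33.5%, with 15.8% higher and 17.7% lower. At a change of at least 2-fold, 2 of the 9, BCL2 and BCL2L11, were called in shHMGA2-2 (3 of 10 with BIK) and 0 in shHMGA2-1, against 21.3% and 8.49% of all genes. The former share is near the background. Without the first shNC library, fewer members were called in shHMGA2-1, and fewer of all genes too. Limma on log2(FPKM + 1) called 3 members there, where it called 4165 of the 16110 genes, against 5390 in the main model. Over the 9 members the median log2 fold change was -0.47 in shHMGA2-2 and -0.14 in shHMGA2-1 (-0.43 and -0.21 with BIK), beside 0.03 and 0.01 over all genes. The members' counts were not tested against the background. Both comparisons share the shNC libraries, so their values are set side by side and are not independent.

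**Figure D2:**
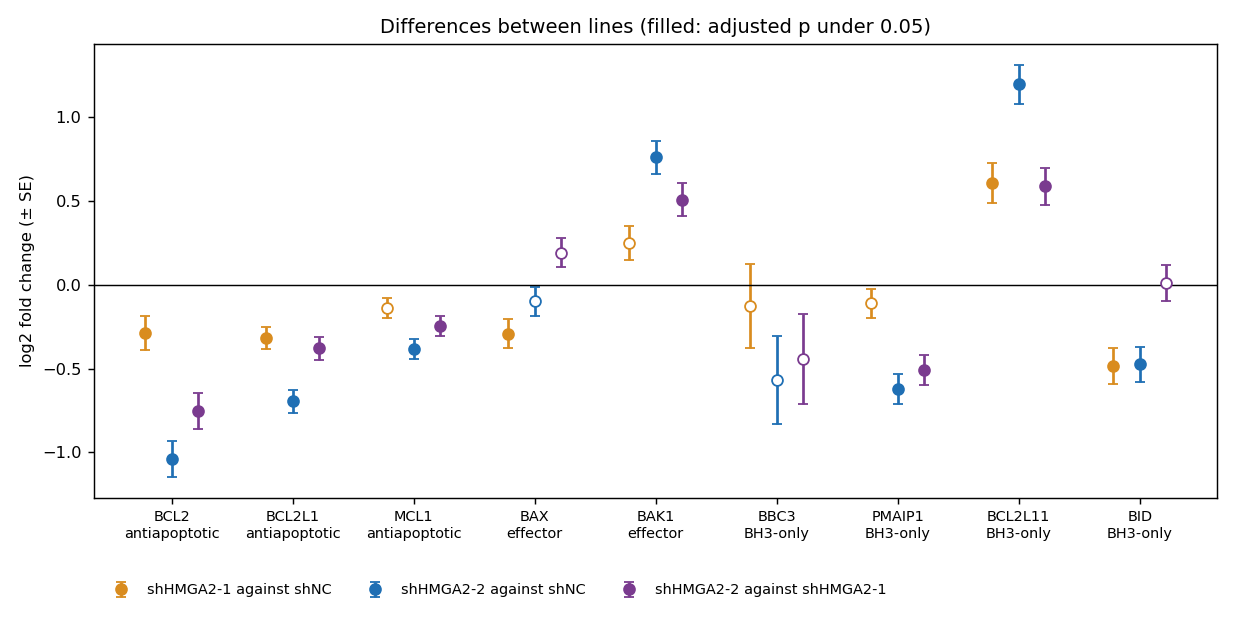
Points give the log2 fold change of 9 members (horizontal axis) in the 3 comparisons between lines (colors) and bars its standard error, with filled points where the adjusted p was under 0.05; BIK, near 0 counts in shNC and shHMGA2-1, is left out. BCL2 reaches -1.04 and BCL2L11 1.20 in shHMGA2-2 against shNC.

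All 3 antiapoptotic genes were called lower in shHMGA2-2, and BCL2 and BCL2L1 also in shHMGA2-1. BCL2 (ENSG00000171791, chromosome 18, 63123346 to 63320128, GRCh38), the founding member of the family, gave counts of 586 and 578 for shNC, against 495 and 513 for shHMGA2-1 and 312 and 286 for shHMGA2-2. In FPKM these were 2.74 and 2.70, 2.29 and 2.38, and 1.50 and 1.37, so that each line was separate from the next. Against shNC, BCL2 fell by 1.04 (SE 0.11) on the log2 scale in shHMGA2-2 (edgeR, adjusted p = 9.42e-09), to 0.486 times the control level. In shHMGA2-1 it fell by 0.29 (SE 0.10, edgeR, adjusted p = 0.0324), a call that was lost in 8 of 14 alternative settings, with either shNC library left out among them (adjusted p = 0.143 to 0.164).

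BCL2L1 (ENSG00000171552, chromosome 20, 31664452 to 31723989), which encodes BCL-XL, was measured at 55.82 and 57.89 FPKM in shNC, while shHMGA2-1 had 50.10 and 45.37 and shHMGA2-2 had 37.97 and 38.29. The 3 lines did not overlap. It fell by 0.32 (SE 0.07) on the log2 scale in shHMGA2-1 (edgeR, adjusted p = 0.000617) and by 0.70 (SE 0.07) in shHMGA2-2 (edgeR, adjusted p = 3.32e-09), or to 0.803 and 0.617 times the shNC level. Both calls held in all 14 alternatives.

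MCL1 (ENSG00000143384, chromosome 1, 150560895 to 150579738), whose protein turns over quickly and neutralizes BAK1, gave 82.18 and 84.48 FPKM in shNC, with 78.67 and 79.74 in shHMGA2-1 and with 69.69 and 68.96 in shHMGA2-2. With 7117 to 8926 counts per library it was the best covered member, and its lines were separate. The decrease was the smallest of the 3 genes: it fell by 0.38 (SE 0.06) on the log2 scale in shHMGA2-2 (edgeR, adjusted p = 5.03e-06), and the change of -0.14 (SE 0.06) in shHMGA2-1 did not pass (edgeR, adjusted p = 0.0772). The latter passed with DESeq2 (adjusted p = 0.0421) and without the second shHMGA2-1 library (adjusted p = 0.0234).

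The effectors did not move alike. BAK1 (ENSG00000030110, chromosome 6, 33572547 to 33580293) had 13.77 and 14.59 FPKM in shNC, against 19.57 and 15.76 in shHMGA2-1 and 25.51 and 26.71 in shHMGA2-2. Both shHMGA2-2 libraries lay above all others, and the shHMGA2-1 libraries differed from each other more than those of either other line. BAK1 was 1.69-fold higher in shHMGA2-2 than in shNC (log2 fold change 0.76, SE 0.10, edgeR, adjusted p = 5.16e-07). In shHMGA2-1 the log2 fold change of 0.25 (SE 0.10) did not pass (edgeR, adjusted p = 0.062), but it did without the second shHMGA2-1 library (0.39, adjusted p = 0.00182) and with upper quartile scaling (adjusted p = 0.02).

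BAX (ENSG00000087088, chromosome 19, 48954815 to 48961798) gave 29.67 and 27.02 FPKM in shNC, while shHMGA2-1 had 26.30 and 22.17 and shHMGA2-2 had 28.06 and 29.46. In FPKM the shHMGA2-2 values lay within those of shNC, and the shHMGA2-1 values lay below both. In shHMGA2-1 BAX fell by 0.29 (SE 0.09) on the log2 scale (edgeR, adjusted p = 0.0123), a call lost in 4 of 14 alternatives, among them without the first shNC library (adjusted p = 0.201) and without the second shHMGA2-1 library (0.0702). In shHMGA2-2 the log2 fold change was -0.10 (SE 0.09, edgeR, adjusted p = 0.344), and it was 0.02 with upper quartile scaling and with limma.

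Among the BH3-only genes, BCL2L11 (ENSG00000153094, chromosome 2, 111119378 to 111168445), which encodes BIM, a direct activator of the effectors that also binds all antiapoptotic members, was the only one called higher in both lines. Its counts were 245 and 280 for shNC, while shHMGA2-1 gave 389 and 456 and shHMGA2-2 gave 606 and 669, with FPKM values of 2.17 and 2.48, 3.40 and 4.00, and 5.53 and 6.06. The lines were fully separate. BCL2L11 was 1.52-fold higher in shHMGA2-1 (log2 fold change 0.61, SE 0.12, edgeR, adjusted p = 0.00031) and 2.30-fold higher in shHMGA2-2 (1.20, SE 0.12, edgeR, adjusted p = 3.33e-09), and both calls held in all 14 alternatives.

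BCL2L11 lies opposite MIR4435-2HG, a long noncoding RNA gene on the other strand, with which it shares 727 of its 6658 exonic bases in GENCODE version 29. The strand setting of the counting is not given in the sources used here, so reads of these shared bases cannot be told apart. For the noncoding gene, shNC gave 1739 and 1802 counts, shHMGA2-1 gave 1491 and 1637, and shHMGA2-2 gave 1482 and 1446. It moved the other way, with log2 fold changes of -0.26 (edgeR, adjusted p = 0.0134) and -0.35 (edgeR, adjusted p = 0.000446). In GENCODE version 29, no other gene that shared exonic bases with a member had more than 6 counts in a library. The table's MCL1 span reaches from 150560895, against 150574551 in that version. ADAMTSL4 on the other strand, with up to 387 counts, overlaps the table's span by 43 bases, and whether these are exonic in the table's gene model was not checked.

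PMAIP1 (ENSG00000141682, chromosome 18, 59899996 to 59904305), which encodes NOXA, a selective partner of MCL1, was the second most abundant member. It had 59.85 and 56.98 FPKM in shNC, with 50.12 and 62.94 in shHMGA2-1 and with 41.57 and 40.98 in shHMGA2-2. The shHMGA2-1 libraries lay on either side of the controls, and both shHMGA2-2 libraries lay below all others. In shHMGA2-2 PMAIP1 fell by 0.62 (SE 0.09) on the log2 scale (edgeR, adjusted p = 2.07e-06). In shHMGA2-1 the log2 fold change was -0.11 (SE 0.09, edgeR, adjusted p = 0.369). This value rested on which shHMGA2-1 library was used: it was -0.30 without the second (adjusted p = 0.000945) and 0.06 without the first (adjusted p = 0.568).

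BID (ENSG00000015475, chromosome 22, 17734138 to 17774770), which caspase-8 cleaves to link death receptors with mitochondria, gave 7.06 and 6.42 FPKM in shNC, against 5.15 and 4.93 in shHMGA2-1 and 5.25 and 5.29 in shHMGA2-2. All 4 knockdown libraries lay below both controls, within a narrow band. The gene fell by 0.48 (SE 0.11, edgeR, adjusted p = 0.000851) and by 0.47 (SE 0.11, edgeR, adjusted p = 0.000434) on the log2 scale in shHMGA2-1 and shHMGA2-2, and both calls held in all 14 alternatives.

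BBC3 (ENSG00000105327, chromosome 19, 47220822 to 47232766), which encodes the BH3-only protein PUMA, was sparse: shNC gave 53 and 69 counts, shHMGA2-1 gave 59 and 59, and shHMGA2-2 gave 34 and 53. The ranges of shNC and shHMGA2-1 overlapped, and those of shNC and shHMGA2-2 met at 53 counts. The fitted log2 fold change was -0.13 (SE 0.25, edgeR, adjusted p = 0.751) in shHMGA2-1, where it turned to 0.08 without the second shNC library, and -0.57 (SE 0.26, edgeR, adjusted p = 0.0685) in shHMGA2-2. The latter value passed without the second shHMGA2-2 library, at -0.91 (adjusted p = 0.0327).

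BIK (ENSG00000100290, chromosome 22, 43110750 to 43129712), a BH3-only protein of the endoplasmic reticulum, was counted 2 and 3 times for shNC, against 0 times and 1 time for shHMGA2-1 and 22 and 12 times for shHMGA2-2. Both shHMGA2-2 libraries stood above all others. Summed over libraries, the ratio of shHMGA2-2 to shNC was 6.43, from 34 counts against 5, with a 95% counting interval of 2.5 to 21.1. The interval covers counting error only and not the spread between libraries. It is no test of BIK, which passed the filter only through the shHMGA2-2 libraries. No fold is given for shHMGA2-1 against shNC, since each library there held 3 counts or fewer, the limit that a count of 0 allows.

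The knockdown lines themselves differed in 6 of the 9 members, 2 higher and 4 lower in shHMGA2-2 than in shHMGA2-1 (7 of 10 with BIK), where 50.2% of all tested genes were called, 24.5% higher and 25.7% lower. BCL2 was lower by a log2 difference of -0.75 (SE 0.11, edgeR, adjusted p = 2.61e-06), BCL2L1 by -0.38 (SE 0.07, edgeR, adjusted p = 4.77e-05), MCL1 by -0.25 (SE 0.06, edgeR, adjusted p = 0.00115) and PMAIP1 by -0.51 (SE 0.09, edgeR, adjusted p = 3.95e-05). BAK1 was higher by 0.51 (SE 0.10, edgeR, adjusted p = 0.000122) and BCL2L11 by 0.59 (SE 0.11, edgeR, adjusted p = 8.42e-05). BIK had 34 counts against 1, a ratio of 34 with a 95% counting interval of 5.7 to 1380, which again covers counting error only. For BAX the log2 difference was 0.19 (SE 0.09, edgeR, adjusted p = 0.072), and it passed in 4 of 15 alternatives, among them without the first shHMGA2-1 library (0.31, adjusted p = 0.00252). BID differed by 0.01 (SE 0.11, edgeR, adjusted p = 0.949), and its sign turned in 2 alternatives. HMGA2 itself was lower in shHMGA2-2 than in shHMGA2-1 by a log2 difference of -1.01 (edgeR, adjusted p = 2.89e-09), and its part in these differences was not tested.

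Taken as a single group of 4, the shHMGA2 libraries differed from shNC in 1 member, BID, against 5.26% of all genes. BID fell by 0.48 (SE 0.10) on the log2 scale (edgeR, adjusted p = 0.0488), lower in 4 of 4 knockdown libraries, and the call was lost in 11 of 15 alternatives, including each in which a library was left out (adjusted p = 0.0659 to 0.387). BCL2L11, with a log2 fold change of 0.93 (SE 0.25), had an adjusted p of 0.0845 by edgeR. In this model the spread between the knockdown lines counts as error, and the biological coefficient of variation was 0.291, against 0.0583 in the model with 3 lines. The mean of both shRNA contrasts in the latter model called 8 members, BIK not among them, where 8016 of all 16110 genes were called.

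Added up by role, the FPKM of the antiapoptotic genes was 140.74 and 145.07 in shNC, while shHMGA2-1 had 131.06 and 127.49 and shHMGA2-2 had 109.16 and 108.62. The effectors summed to 43.44 and 41.61 in shNC, with 45.87 and 37.93 in shHMGA2-1 and with 53.57 and 56.17 in shHMGA2-2. The antiapoptotic sum was thus lower in each knockdown line without overlap, and the effector sum was higher than in the controls in shHMGA2-2 but spanned them in shHMGA2-1. As a share of the 10 genes, antiapoptotic transcripts made up 55.3% and 57.1% in shNC and 50.3% and 49.6% in shHMGA2-2, and effectors 17.1% and 16.4% against 24.7% and 25.7%. In shHMGA2-1 the shares were 55.4% and 53.5% for antiapoptotic transcripts and 19.4% and 15.9% for effectors, and both overlapped or spanned those of shNC. The BH3-only sum was set mainly by PMAIP1 and lay between 54.09 and 73.01 in all libraries. These sums follow transcript levels, so abundant genes dominate them, and no test was run on them.

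**Figure D3:**
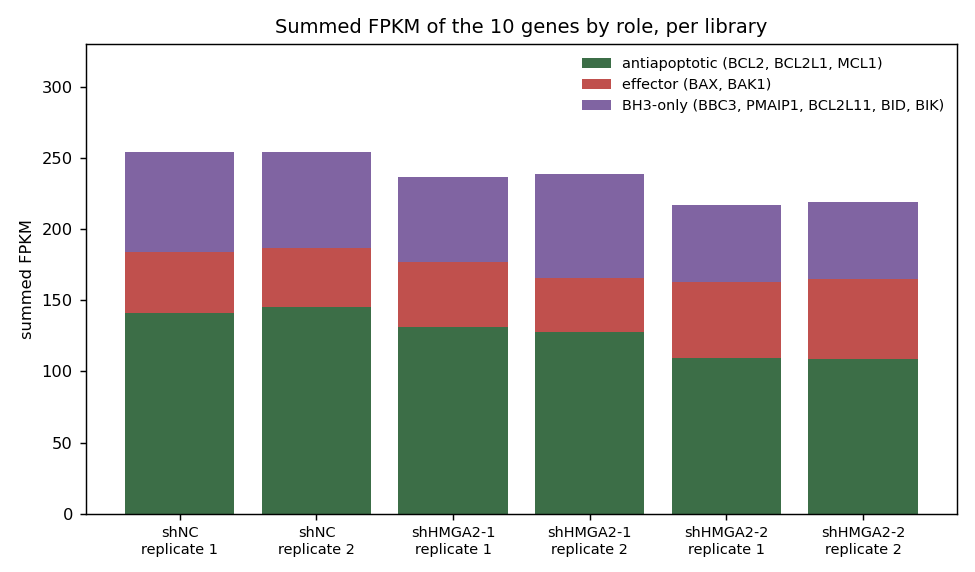
Stacked bars give the summed FPKM (vertical axis, from 0) of the antiapoptotic, effector and BH3-only members in each of the 6 libraries (horizontal axis). The total falls from 254 in the shNC libraries to 217 and 219 in shHMGA2-2, while the effector part grows to 53.57 and 56.17.

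Ratios within a library do not depend on its scaling. The FPKM of BCL2L11 relative to BCL2 was 0.792 and 0.919 in shNC, against 1.48 and 1.68 in shHMGA2-1 and 3.69 and 4.42 in shHMGA2-2. BAX relative to BCL2 was 10.8 and 10.01 in shNC, while shHMGA2-1 had 11.5 and 9.32 and shHMGA2-2 had 18.7 and 21.5. BAK1 relative to BCL2L1, an antiapoptotic partner that binds it, went from 0.247 and 0.252 through 0.391 and 0.347 to 0.672 and 0.698. The first and the last of these were higher in each knockdown line than in the controls, and BAX to BCL2 only in shHMGA2-2. PMAIP1 relative to MCL1, by contrast, was 0.728 and 0.674 in shNC, with 0.637 and 0.789 in shHMGA2-1 and with 0.596 and 0.594 in shHMGA2-2, where both fell.

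Beside the members, 74 genes of the surrounding pathway were listed, of which 66 passed the filter. In shHMGA2-1 against shNC 32 of them (48.5%) were called, 19 higher and 13 lower, beside 33.5% of all genes. In shHMGA2-2 42 (63.6%) were called, 22 higher and 20 lower, beside 58.8%. Between the knockdown lines 38 (57.6%) were called, 18 higher and 20 lower in shHMGA2-2, beside 50.2%. The counts of single lists that follow are to be read against the same shares of all genes. Their median log2 fold change was 0.01 in both comparisons with shNC. With either shNC library left out, the count for shHMGA2-1 was lower, and so was the count of all genes called.

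**Figure D4:**
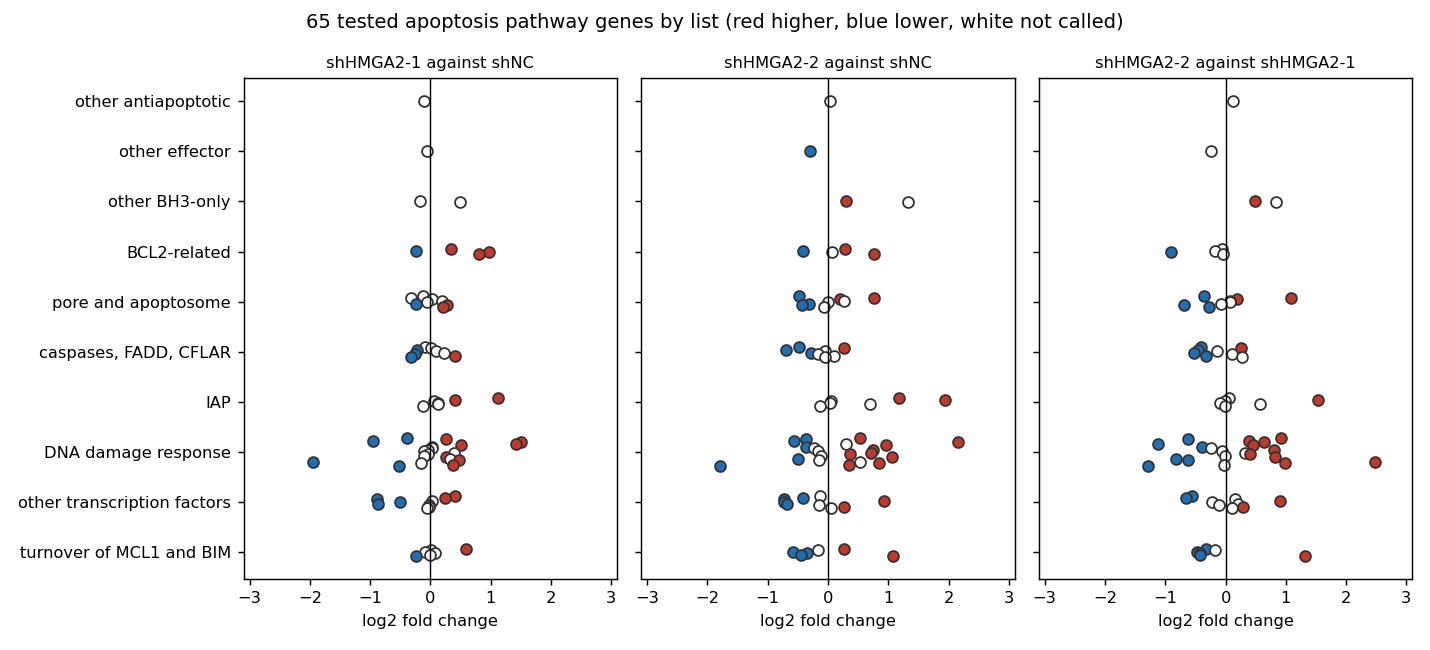
Each point is the log2 fold change (horizontal axis) of a tested pathway gene in its list (vertical axis) in the 3 comparisons between lines, red where called higher, blue where called lower and white otherwise; BTG2, with 2 counts in all in shNC, is left out. BIRC2 and BIRC3 stand to the right in the IAP list, and the DNA damage response list spreads to both sides.

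Of the 4 close relatives that could be tested, 0 were called in shHMGA2-1 and 2 in shHMGA2-2, beside 33.5% and 58.8% of all genes. Of the other antiapoptotic genes BCL2L2, which encodes BCL-W, had log2 fold changes of -0.10 in shHMGA2-1 and 0.03 in shHMGA2-2, neither of which passed, and BCL2A1 and BCL2L10 had 0 or 1 counts in every library. BOK, an effector relative, was lower in shHMGA2-2 (-0.30, edgeR, adjusted p = 0.0239), and BAD, a BH3-only partner of BCL2 and BCL-XL, was higher there (0.31, edgeR, adjusted p = 0.0151). BMF and HRK were near the limit of detection, with at most 16 and 4 counts.

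Among more distant relatives, all 4 tested genes were called in shHMGA2-1 and 3 in shHMGA2-2. BNIP3L, a mitophagy receptor with a BH3-like stretch, rose from 26.41 and 25.35 FPKM in shNC to 44.67 and 49.59 in shHMGA2-1 and 48.04 and 47.30 in shHMGA2-2, with log2 fold changes of 0.80 and 0.76 (edgeR, adjusted p = 4.59e-09 and 2.92e-09). Its relative BNIP3 rose in shHMGA2-1 (0.97, edgeR, adjusted p = 4.2e-11), whereas the value in shHMGA2-2 was 0.07 (edgeR, adjusted p = 0.384), and the lines differed (-0.90, edgeR, adjusted p = 5.2e-11). BCL2L12 was higher (0.34 and 0.28) and BCL2L13 lower (-0.24 and -0.41) in both.

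Downstream of the pore, 3 of 8 genes of the channel and apoptosome list were called in shHMGA2-1 and 5 in shHMGA2-2. APAF1, the apoptosome scaffold, was lower in shHMGA2-2 (-0.48, edgeR, adjusted p = 6.63e-05) and CASP9, the caspase it activates, was higher (0.76, edgeR, adjusted p = 0.000413). VDAC2, a channel that binds BAK1 at the membrane, was higher in shHMGA2-1 (0.27, edgeR, adjusted p = 0.00278) and lower in shHMGA2-2 (-0.43, edgeR, adjusted p = 7.86e-06). The list of 8 caspase and death-inducing complex genes had 1 higher and 3 lower in each line. CFLAR, an inhibitor of caspase-8 activation, was higher in shHMGA2-1 (0.42, edgeR, adjusted p = 0.000206), and CASP10, an initiator caspase, was lower in shHMGA2-2 (-0.48, edgeR, adjusted p = 0.00333).

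Of the inhibitor of apoptosis genes (IAP), 2 of 6 tested were called in each line, both higher. BIRC2, which encodes cIAP1, rose from 81.28 and 79.74 FPKM in shNC to 175.76 and 191.43 in shHMGA2-1 and 202.73 and 193.75 in shHMGA2-2, with log2 fold changes of 1.13 (edgeR, adjusted p = 8.21e-13) and 1.18 (edgeR, adjusted p = 4.72e-14). BIRC3, which encodes cIAP2, rose by 0.41 (edgeR, adjusted p = 0.000255) and 1.94 (edgeR, adjusted p = 2.9e-16). XIAP, the direct caspase inhibitor, had log2 fold changes of -0.12 and -0.13, and like BIRC5, BIRC6 and NAIP it did not pass.

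The DNA damage response list split, with 8 higher and 4 lower of 21 tested genes in shHMGA2-1 and 10 higher and 5 lower in shHMGA2-2 (median log2 fold change over the list 0.02 and 0.35). BTG2, an antiproliferative target, had 1 count in each shNC library, against 68 and 55 for shHMGA2-1 and 139 and 140 for shHMGA2-2. The ratios were 58.2 (95% counting interval 15.8 to 486) and 132 (36.2 to 1090), and these intervals cover counting error only. Like BIK, BTG2 passed the filter on low counts only through the libraries where it is high, so its test is not reported. It is included in the counts of this list and of all pathway genes, where its calls are no separate support. DDB2, a DNA damage sensor, rose by 1.51 and 2.15 on the log2 scale (edgeR, adjusted p = 5.37e-09 and 9.06e-13), and ZMAT3 fell by 0.52 and 1.80 (edgeR, adjusted p = 0.000137 and 2.18e-13). For TP63, shNC gave 8 and 11 counts, shHMGA2-1 gave 1 and 4, and shHMGA2-2 gave 16 and 13.

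Among 9 other transcription factors known to act on these genes, 2 were higher and 3 lower in shHMGA2-1, and 2 higher and 4 lower in shHMGA2-2. FOXO3, a forkhead activator of BCL2L11, was lower in both lines (-0.88, edgeR, adjusted p = 2.37e-07, and -0.67, edgeR, adjusted p = 3.29e-06), and so was FOXO1 (-0.50 and -0.73). Their part in the level of BCL2L11 was not tested. DDIT3, which encodes the stress factor CHOP, was lower in both lines (-0.89 and -0.73), and E2F1, a cell cycle factor, was higher in shHMGA2-2 (0.92, edgeR, adjusted p = 8.16e-09).

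Of 6 tested genes that act on the turnover of MCL1 and BIM proteins, 2 were called in shHMGA2-1 and 5 in shHMGA2-2. USP9X, a deubiquitinase that stabilizes MCL1, rose from 16.01 and 15.25 FPKM in shNC to 37.32 and 34.53 in shHMGA2-2 (log2 fold change 1.08, edgeR, adjusted p = 5.94e-13), against 13.85 and 13.85 in shHMGA2-1 (-0.24, edgeR, adjusted p = 0.00695). HUWE1, a ligase that marks MCL1 for degradation, was lower in shHMGA2-2 (-0.57, edgeR, adjusted p = 6.31e-09). Protein levels were not measured in these libraries.

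The genes most like the members in pattern were sought by the root mean square difference of centred log2 expression over the 6 libraries. Expression here was log2(CPM + 0.5), with CPM the counts scaled to library size. For BIK, whose line means spanned the widest range on this scale (1.47), MALAT1 (0.08), ENSG00000287484 (0.09) and CD83 (0.14) were nearest. This likeness rests on 40 BIK counts in all and on the added 0.5, since BIK's line means were 0.03 to 0.99 CPM. The added 0.5 narrows BIK's range, as its counts gave a ratio of 34 between shHMGA2-2 and shHMGA2-1. The likeness does not show that these genes changed by as large a ratio as BIK. For BCL2L11, chosen after its values were seen as the member with the widest range above the count limit, C5orf63 (0.06), ENSG00000197670 (0.08) and ZNF253 (0.08) were nearest.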

How the data were processed

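RNA of 6 libraries, 2 per line, was analysed from a single deposited table. The authors deposited raw read counts per gene and FPKM values, which divide a gene's counts by its exonic length and by the total of the library; FPKM was recomputed from the counts within 0.0051 for 100% of values. The submitters' processing notes name HISAT2 2.2.1, HTSeq 0.6.1 and GRCh38.p13. The annotation release and the strand setting are not given in the sources used here. The study's methods name DESeq2 for its differential expression.

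Counts were tested with edgeR 4.0.16 in R 4.3.3: filterByExpr by line, TMM normalization (factors 0.958 to 1.05) and quasi-likelihood tests, with p-values adjusted by Benjamini-Hochberg over 16110 genes. A model with 3 lines gave the comparisons between lines, and a model with 2 groups the comparison of all 4 knockdown libraries with shNC. The test was checked on simulated data. Alternatives were relative log expression and upper quartile scaling, DESeq2 1.42.0, no filter, a mean FPKM of at least 1, limma 3.58.1 on log2(FPKM + 1) and log2(FPKM + 0.1), the replicate number as a block, and each library left out in turn. Counting intervals (95%) and the limit of 3 counts, 0.175 to 0.182 CPM, cover counting error only, as molecules were not tagged. Libraries of each line differed by more than sampling noise (chi-square per degree of freedom 2.06 to 6.84), so none was treated as a second deposit of another, which does not show that they came from separate cultures. Sample columns that were not used numbered 0.

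The text names all 10 members, members of pathway lists of up to 8 genes, and the genes nearest in pattern. For longer lists it names the 3 genes of largest change in each comparison of a knockdown line with shNC. The members and the lists were chosen with earlier results of these data known. Some list genes that enter the counts are not reported here by name. Promoter windows came from RefSeq (GRCh38.p14), which shares its primary assembly with the build of the table.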

Additional observations from a re-analysis of the deposited data

Results flagged for a closer look

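The effects of the 2 hairpin lines, measured against the same shNC libraries, differed for 6 members by the direct comparison of shHMGA2-2 with shHMGA2-1 (edgeR's quasi-likelihood test). The log2 difference was -0.75 for BCL2, -0.38 for BCL2L1, -0.25 for MCL1 and -0.51 for PMAIP1, all lower in shHMGA2-2, and 0.51 for BAK1 and 0.59 for BCL2L11, both higher there. BIK also differed, but the fitted value of 4.77 rests on 1 count in shHMGA2-1 and depends on the prior count of the fit, so that it is no bound, and the gene entered the test only through the shHMGA2-2 libraries, where it is high. For the 6 genes this comparison kept its call and direction in all 15 alternatives. With 2 libraries per line, no test of single samples standing apart was made.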

How the results depend on the processing

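Over the values of single members and the counts of calls, 120 of 139 alternative values for shHMGA2-1 against shNC, 133 of 139 for shHMGA2-2 against shNC, 143 of 149 for shHMGA2-2 against shHMGA2-1 and 129 of 149 for the single group kept their direction and their side of the threshold. For shHMGA2-1 against shNC, 3 members were called with limma at a pseudocount of 1 or 0.1, against 5 in the main model. Of all genes, these settings called 4165 and 4210, against 5390 in the main model. With a library left out, the calls in this comparison ranged from 3 to 7 members, from 15 to 35 pathway genes (32 in the main model) and from 3284 to 5794 genes in all (5390 in the main model), the lowest counts being those without an shNC library. For the single group, 0 members were called with upper quartile scaling, with every gene of at least 1 count, with either limma setting and with any library left out, where edgeR called 1 and where 4106 of all genes had an unadjusted p under 0.05. DESeq2 called 3 members and 1982 genes, and averaging both contrasts of the 3-line model gave 8 members, 31 pathway genes and 8016 genes, against 6 pathway genes and 848 genes in the main model. With a library left out the single group gave 0 to 5 pathway genes and 4 to 822 genes. The sign turned for BBC3 in shHMGA2-1 without the second shNC library (range over libraries left out -0.31 to 0.076), for PMAIP1 in shHMGA2-1 without its first library (-0.30 to 0.057), for BAX in shHMGA2-2 with upper quartile scaling (0.016) and limma (0.021 and 0.022), and for BID between the knockdown lines without the second shHMGA2-1 or the first shHMGA2-2 library (-0.0083 to 0.028). No value of the turned sign was called. Upper quartile scaling moved the median of all genes to 0.14 in shHMGA2-2 and 0.13 in the single group. It moved the share of calls that were higher from 47.2% to 58.8% in shHMGA2-1, from 50.3% to 59.9% in shHMGA2-2 and from 44.5% to 55.7% in the single group; with limma on log2(FPKM + 0.1) these shares were 58.9%, 60.6% and 58.5%, and with limma on log2(FPKM + 1) 57.4%, 60.7% and 49.5%. BIK could not be fitted where a mean FPKM of at least 1 was required. Levels with TMM library sizes were 0.959 to 1.04 times those deposited. The cause of these changes was not tested. Depth limits BIK and BBC3 most.

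The libraries share only a replicate number, and same-numbered libraries did not deviate together (correlations -0.0220, 0.00135 and -0.144). With the replicate number as a block, 4 members were called in shHMGA2-1 (BCL2 lost, adjusted p = 0.0543), 8 in shHMGA2-2 and 7 between the knockdown lines. In the single group the block left 0 members, 2 pathway genes and 152 genes. With the numbers of shHMGA2-1 crossed, chosen after seeing the data, 8 members, 39 pathway genes and 8505 genes were called between the knockdown lines.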
